A study of Mus musculus with 5 samples.

Results

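Chemokine ligands are small secreted proteins that guide leukocytes. The 34 mouse ligand genes described here were taken as a list of symbols, chosen with earlier results of these data known. All 34 were found among the 49927 Ensembl gene IDs of the series, each with 1 ID. The libraries hold messenger RNA of regulatory T cells (Tregs), a suppressive CD4 T cell type, sorted from C57BL/6 mice. Every mouse carried Foxp3Cre, in which the Cre recombinase is driven by Foxp3, the gene of the transcription factor that defines Tregs, so recombination is directed to Foxp3-expressing cells. There was 1 library in each of 5 groups. At 4 months there was a lymph node (LN) library and an adipose library, both from Foxp3Cre mice, and an adipose library from obese Foxp3Cre mice, whose title carries HFD. The first of these adipose libraries is called lean here because its labels name no obesity. At 10 months there was an adipose library of Foxp3Cre mice and one of Med23fl/fl;Foxp3Cre mice, whose title carries MKO. It is called the library labelled Med23 KO, or the labelled knockout. The Med23 protein belongs to Mediator, which links transcription factors with RNA polymerase II. The sort gate, the fat depot, the sex and the number of mice behind a library are not stated in the sources used here.

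Chemokines bind receptors of the G protein-coupled class on migrating cells. CC chemokines mostly draw monocytes, eosinophils and lymphocytes, CXC chemokines that bind CXCR2 draw neutrophils, and those that bind CXCR3 draw activated T cells. In fat, macrophages and stromal cells are known sources of many of these ligands, Ccl2 being the best studied, while T cells are known to make Ccl5, Ccl3, Ccl4, Ccl1 and Xcl1.

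The depth was 9694474 listed reads for LN, 8540594 for lean, 7496496 for obese, 9650769 for 10-month Foxp3Cre and 4595046 for the labelled knockout. Med23 itself had 15.5 CPM (listed values as a share of their library's total, the usual counts per 1000000) in the library labelled Med23 KO, against 6.32 in its Foxp3Cre control, so the level over the whole gene did not follow the label. Reads over the whole gene do not show whether a floxed exon was lost, and every direction given for that library rests on its label. It had 6.40 CPM in LN, 46.8 in lean and 33.3 in obese. Both 4-month adipose libraries stood apart from the other 3 in sex markers and in Gapdh, which encodes an enzyme of glycolysis. Ddx3y, a Y-linked gene, had 559.7 and 562 CPM in the 2 and no listed value above 0 in the others, Xist, transcribed from the silenced X of females, had 0 and 3.60 against 228 to 602, and Gapdh had 1.05 and 10.7 against 548 to 979. For this reason the 10-month Foxp3Cre library is also set against LN below, although the age then differs. The 8 Treg and T cell markers, Foxp3 among them, were above 0 in all 5 libraries and summed to between 6515 and 8556 CPM. The sum does not show differences in single markers. Foxp3 had 52.5 CPM in LN and 155 to 216 in the adipose libraries, while Cd3g had 2787 in LN and 727 to 1147 in adipose. Summed over a list, other cells' markers reached at most 107 CPM for dendritic cells (obese), 101 for B cells (LN) and 89.9 for endothelium (obese, Pecam1 and Vwf alone). They reached 63.8 for CD8 T and NK cells (labelled knockout), 14.8 for adipocytes and 10.3 for mast cells and eosinophils. Fibroblast and mesothelial markers reached 984 (lean). Macrophage and monocyte markers reached 5693 in obese, beside 7191 for the Treg and T cell markers there. Both lists stand beside the results. With 1 library per group there is no test between conditions and no replicate error. The intervals in parentheses are exact Clopper-Pearson intervals (95%) of a ratio or share of reads, and cover counting error alone. A count of 0 allows a level of up to 3 reads, which is 0.309 CPM in LN and 0.653 in the labelled knockout, the lowest and the highest of these limits, and folds against no reads are given as lower bounds from it.

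The libraries differed in how much chemokine message they held. The 34 genes summed to 521 CPM in LN, 8053 in lean, 12301 in obese and 7100.3 in 10-month Foxp3Cre adipose, and 929 in the labelled knockout. As a share of all listed reads this came to 0.0521% (0.0507 to 0.0536) in LN, 0.805% (0.799 to 0.811) in lean, 1.23% (1.22 to 1.24) in obese, 0.710% (0.705 to 0.715) in 10-month Foxp3Cre and 0.0929% (0.0902 to 0.0958) in the labelled knockout. Adipose libraries were thus high, with the exception of the one labelled Med23 KO, which was nearer to LN, though above it. Members above 0 numbered 11 in LN, 27 in lean, 27 in obese, 22 in 10-month Foxp3Cre and 11 in the labelled knockout. Over all gene IDs, those above 0 numbered 10666, 11411, 13632, 11592 and 10784 in the same order. Across the libraries 21 members reached 20 CPM in at least 1 of them, 10 reached between 1 and 20, and Ccl20, Ccl28 and Ppbp had no reads in any.

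**Figure D1:**
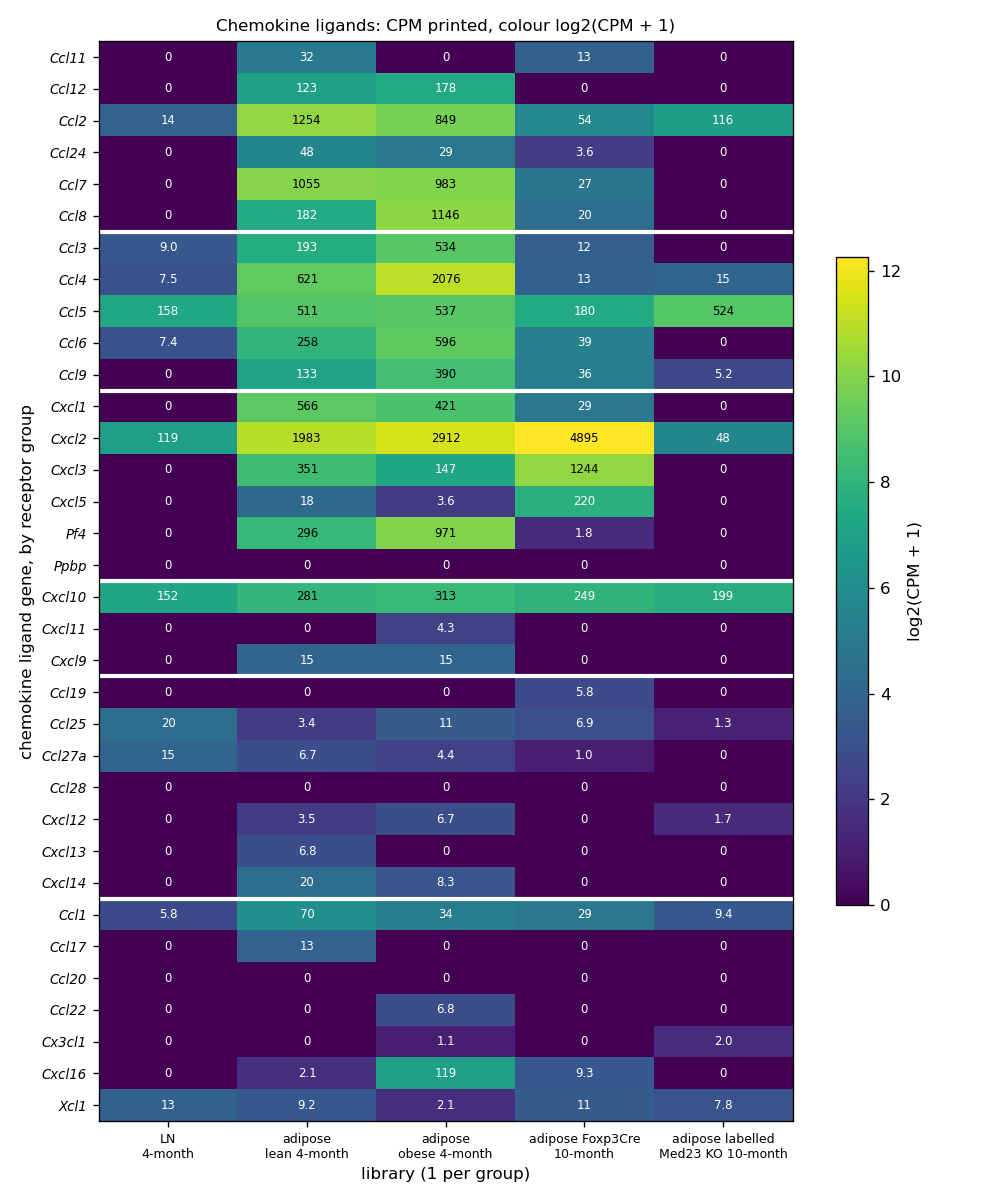
Level of the 34 chemokine ligand genes (rows, grouped by receptor or by kind, with white lines between groups) in the 5 libraries (columns). Each cell prints CPM and its colour is log2(CPM + 1). Cxcl2 is above 0 in every library and reaches 4895 CPM in 10-month Foxp3Cre adipose, while most rows are at 0 in LN and the labelled knockout.

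The mix of ligands differed as well. In LN, Ccl5, Cxcl10 and Cxcl2 made up 82.4% of the summed ligand level. In lean adipose the CXCR2 ligands with the platelet chemokines took 39.9% and the members grouped as ligands of CCR2 and CCR3 33.5%. In obese adipose the same groups took 36.2% and 25.9%, and Ccl3, Ccl4, Ccl5, Ccl6 and Ccl9 together took 33.6%. In 10-month Foxp3Cre adipose the CXCR2 ligands with the platelet chemokines took 89.99%, and Cxcl2 alone 68.9%. In the labelled knockout these last 5 genes took 58.5%, nearly all of it Ccl5.

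**Figure D2:**
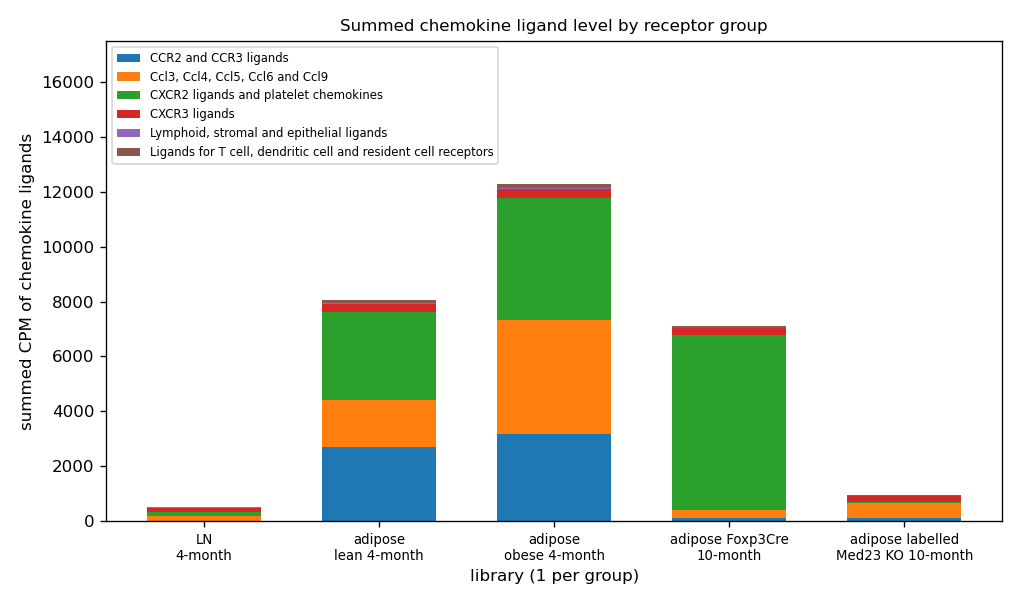
Summed CPM of the chemokine ligands (vertical axis, linear) in each library (horizontal axis), stacked by ligand group. The bar of 10-month Foxp3Cre adipose is almost wholly CXCR2 ligands with platelet chemokines (6390 of 7100.3 CPM). Both 4-month adipose bars hold 3 groups of comparable size.

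Per exon length, several ligands were among the most abundant messages of these libraries. With CPM divided by the kilobases of exon in GENCODE M21, Ccl4 ranked 5th, Ccl8 13th, Cxcl2 23rd, Pf4 25th and Ccl7 30th of 13600 genes in obese adipose. In lean adipose Ccl7 ranked 29th, Ccl2 39th, Cxcl2 53rd and Ccl4 54th of 11384. In 10-month Foxp3Cre adipose Cxcl2 ranked 12th and Cxcl3 147th of 11551. The highest ranks in LN and the labelled knockout were those of Ccl5, 446th of 10641 and 74th of 10752.

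The CXCR2 ligands, which draw neutrophils, held the highest single level of the list. Cxcl2 had 119 CPM in LN, 1983 in lean, 2912 in obese, 4895 in 10-month Foxp3Cre and 48.3 in the labelled knockout. Its level in 10-month Foxp3Cre was thus the highest of the 5 and that of the labelled knockout the lowest. Cxcl3, a close relative, had no reads in LN or the labelled knockout, 351 CPM in lean, 147 in obese and 1244 in 10-month Foxp3Cre. Cxcl5 likewise had no reads in those 2 libraries, 17.9 CPM in lean, 3.60 in obese and 220.2 in 10-month Foxp3Cre. Cxcl1 was highest in the 4-month adipose libraries, which differ from the 10-month one in sex markers and Gapdh as well as age: it had 566 CPM in lean and 421 in obese, 28.7 in 10-month Foxp3Cre, and no reads in LN or the labelled knockout. Pf4, platelet factor 4, which is also made by some tissue macrophages, had 296 CPM in lean, 971 in obese and 1.76 in 10-month Foxp3Cre, with no reads in LN, and was listed at 0 in the labelled knockout. Ppbp, the other platelet chemokine of the list, had no reads in any library.

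In RefSeq (GRCm38.p6) the coding genes Cxcl5, Ppbp, Pf4, Cxcl3, Cxcl15, Cxcl1 and Cxcl2 follow each other on chromosome 5. Neighbours in this row did not share 1 pattern. Cxcl5, Cxcl3 and Cxcl2 were highest in 10-month Foxp3Cre adipose, Cxcl1, next to Cxcl2, was highest in lean, and Pf4, next to Cxcl3, was highest in obese adipose. Cxcl15 had no reads in any library.

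The bases before the start of these genes are shown because Cxcl1, Cxcl2 and Cxcl3 are known targets of NF-kB, and because the levels of these genes differed widely between libraries. Promoter windows from RefSeq (GRCm38.p6, 250 bases before to 50 after the start) were present for 25 of the 34 members. Those of the 4 members with the highest adipose level among these 25 (Cxcl2, Cxcl3, Ccl8 and Pf4) and, added after the values were seen, Cxcl1 are given below as the 150 bases before the start, 5′ to 3′ on the + strand. Capitals mark matches of the NF-kB consensus motif on either strand, which overlap where both strands match.
Cxcl2, chr5:90903749-90903898: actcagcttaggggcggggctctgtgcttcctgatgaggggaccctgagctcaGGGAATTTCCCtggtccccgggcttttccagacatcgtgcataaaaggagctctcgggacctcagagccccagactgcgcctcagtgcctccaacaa
Cxcl3, chr5:90785951-90786100: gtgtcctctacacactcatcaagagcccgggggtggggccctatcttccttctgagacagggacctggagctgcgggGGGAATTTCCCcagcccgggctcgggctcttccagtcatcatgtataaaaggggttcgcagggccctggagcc
Cxcl1, chr5:90891095-90891244: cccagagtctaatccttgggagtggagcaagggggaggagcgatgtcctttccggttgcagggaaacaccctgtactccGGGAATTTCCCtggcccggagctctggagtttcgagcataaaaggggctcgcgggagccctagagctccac
Pf4, chr5:90772285-90772434: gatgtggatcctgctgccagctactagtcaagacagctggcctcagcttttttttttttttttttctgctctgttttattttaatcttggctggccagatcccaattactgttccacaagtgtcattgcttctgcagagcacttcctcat
Ccl8, chr11:82115035-82115184: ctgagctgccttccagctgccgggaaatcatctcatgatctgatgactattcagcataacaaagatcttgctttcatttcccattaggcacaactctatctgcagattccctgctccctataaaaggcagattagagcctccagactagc

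The same run of capitals stands before Cxcl1, Cxcl2 and Cxcl3, beginning 97 bases before the start in Cxcl2, 73 in Cxcl3 and 71 in Cxcl1, and the windows of Pf4 and Ccl8 hold no match. Across the 25 member windows, 6 held the NF-kB motif (Ccl9, Ccl20, Cxcl1, Cxcl2, Cxcl3 and Cxcl10), against 4.35% of all 27025 genes' windows. Ccl2, Ccl4 and Ccl7 were among the members without a window, so their promoters were not searched. A match describes letters and not binding. Cxcl10 held 2 separate NF-kB matches and 1 of the consensus of the ISRE, the interferon response element, which 3 member windows and 3.49% of all windows held. The GAS motif TTCNNNGAA stood in 2 member windows and 8.47% of all, the AP-1 motif TGANTCA in 5 and 7.93%, and the TATA box TATAAA in 8 and 14.2%, with both strands searched for each.

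The members grouped as ligands of CCR2 and CCR3, most of which draw monocytes or eosinophils, were a feature of the 4-month adipose libraries. The receptor that mouse Ccl8 binds was not tested here, and Ccl8 stands in this group by listing alone. Ccl2, the main monocyte attractant, had 13.6 CPM in LN, 1254 in lean, 849 in obese, 53.9 in 10-month Foxp3Cre and 116 in the labelled knockout. Ccl7, its neighbour in RefSeq and also a ligand of CCR2, had 1055 in lean, 983 in obese, 27.5 in 10-month Foxp3Cre and no reads in LN or the labelled knockout. Ccl2 and Ccl7 were of like size in the 4-month adipose libraries, but the labelled knockout held 532 reads of Ccl2 and none of Ccl7. Ccl8 had 182 CPM in lean, 1146 in obese, 20.1 in 10-month Foxp3Cre and no reads in LN and the labelled knockout. Ccl12 had 123 in lean and 178 in obese and no reads in the other 3 libraries. The eosinophil attractants were lower. Ccl11 (eotaxin) had 32.2 in lean and 13.2 in 10-month Foxp3Cre, with no reads in obese, LN or the labelled knockout. Ccl24 had 48.5 in lean, 29.5 in obese, 3.63 in 10-month Foxp3Cre and no reads in LN, and was listed at 0 in the labelled knockout.

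**Figure D3:**
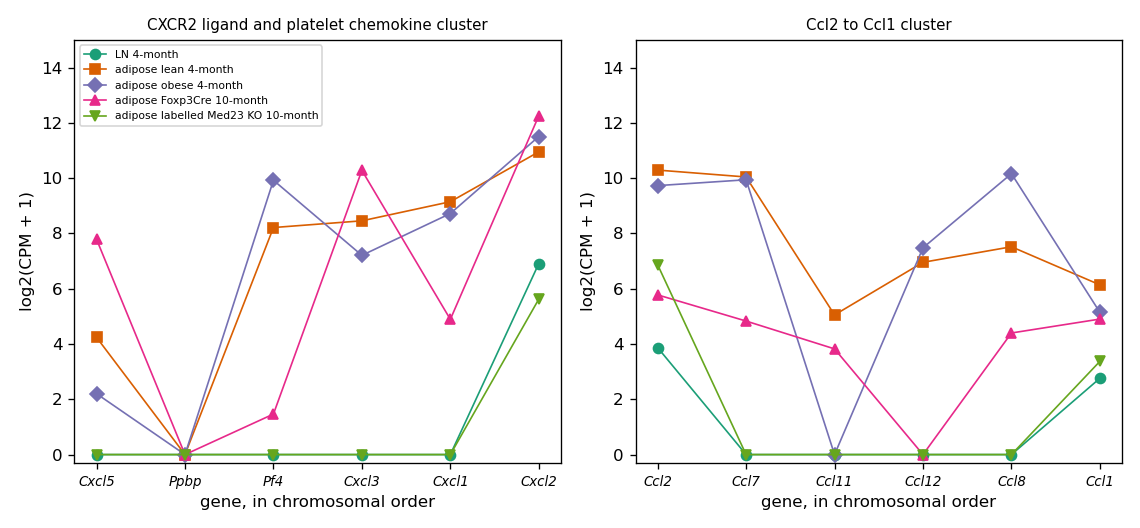
Level as log2(CPM + 1) of the genes in 2 chemokine clusters, in the order they have on the chromosome, with 1 line per library. The lines only guide the eye. In the left panel 10-month Foxp3Cre adipose is highest for Cxcl5, Cxcl3 and Cxcl2 but not for Pf4 or Cxcl1. In the right panel both 4-month adipose libraries lie above the others for Ccl2, Ccl7, Ccl12 and Ccl8.

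Ccl3, Ccl4, Ccl5, Ccl6 and Ccl9, neighbours on chromosome 11, are CC ligands of T cells and myeloid cells. Ccl5 (RANTES), which T cells make, was well above 0 in every library. It had 158 CPM in LN, 511 in lean, 537 in obese, 179.99 in 10-month Foxp3Cre and 524 in the labelled knockout. Lean, obese and labelled knockout were thus close in level, and LN and 10-month Foxp3Cre were lower and close to each other. Ccl4 (MIP-1 beta) had 7.53 in LN, 621 in lean, 2076 in obese, 13.0 in 10-month Foxp3Cre and 15.02 in the labelled knockout. Ccl3 (MIP-1 alpha) had 8.97 in LN, 193 in lean, 534 in obese, 12.1 in 10-month Foxp3Cre and no reads in the labelled knockout. Ccl3 and Ccl4 overlap in RefSeq, and reads from the overlap cannot be assigned without the strand setting, which is not given. Ccl6, a myeloid cell product, had 7.43 in LN, 258 in lean, 596 in obese and 39.2 in 10-month Foxp3Cre, and Ccl9 had 133 in lean, 390.4 in obese, 35.9 in 10-month Foxp3Cre and 5.22 in the labelled knockout. LN held no Ccl9 reads, and the labelled knockout no Ccl6 reads.

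Of the CXCR3 ligands, which interferon induces and which draw activated T cells, Cxcl10 varied least of the members that reached 20 CPM. It had 152 CPM in LN, 281 in lean, 313 in obese, 249 in 10-month Foxp3Cre and 199 in the labelled knockout. Its overlap with Art3 in RefSeq leaves part of its reads uncertain. Cxcl9 had 14.8 in lean and 14.9 in obese and no reads elsewhere, and Cxcl11 had 4.27 in obese alone.

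Lymphoid, stromal and epithelial ligands were low throughout, summing to between 3.05 CPM in the labelled knockout and 40.4 in lean. Ccl25, which draws cells through CCR9, had 20.1 in LN, 3.40 in lean, 10.9 in obese, 6.94 in 10-month Foxp3Cre and 1.31 in the labelled knockout. Ccl27a, a skin chemokine, was also highest in LN, at 14.96, against 1.04 to 6.67 in the other libraries that listed it above 0. It overlaps Il11ra1 in RefSeq. Cxcl14 had 20.02 in lean, 8.27 in obese and no reads in the other 3 libraries. Cxcl12, the ligand of CXCR4, reached at most 6.67 (obese), Cxcl13, the B cell attractant, 6.79 (lean alone) and Ccl19, a ligand of CCR7, 5.80 (10-month Foxp3Cre alone).

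Among the ligands that act on T cells, dendritic cells and resident cells, Cxcl16 stood out in obese adipose. Cxcl16, which binds CXCR6, had 119 CPM in obese, 2.11 in lean, 9.33 in 10-month Foxp3Cre and no reads in LN or the labelled knockout. Zmynd15 overlaps it in RefSeq. Ccl1, a T cell product that binds CCR8, had 5.78 in LN, 69.6 in lean, 34.4 in obese, 28.9 in 10-month Foxp3Cre and 9.36 in the labelled knockout. Xcl1 (lymphotactin) ranged from 2.13 in obese to 13.2 in LN. The CCR4 ligands appeared in 1 library each, Ccl17 in lean (13.2) and Ccl22 in obese (6.80), and Cx3cl1 reached at most 1.96.

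Lean adipose against LN asked how Tregs of fat differ from those of lymphoid tissue, between libraries that also differ in sex markers and Gapdh, which cannot be told apart from tissue. At least 2-fold higher in lean adipose were 23 of the 27 members measured (1 or more scaled counts in either library) on the log2((value + 1)/(value + 1)) scale, where 37.6% of all 13541 measured genes were. At least 2-fold lower were 2 members, Ccl25 and Ccl27a, against 32.1% of all genes. The members' median log2 ratio was 4.17, against 0.14 over all genes, and 5.43 with the members that had no reads in LN set at their lower bounds. LN listed 16 of the 27 at 0, so those had no way to be lower.

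Folds within a table use the authors' scaled counts and can differ slightly from ratios of CPM. In lean adipose Ccl2 was 83.5-fold higher than in LN (70.3 to 99.9), Ccl4 74.7-fold (59.3 to 95.4), Ccl6 31.5-fold (24.9 to 40.4) and Cxcl2 15.1-fold (14.2 to 16.0). Ccl7, at 1003 scaled counts against no reads, was at least 3089-fold higher, Cxcl1 at least 1659-fold and Cxcl3 at least 1027-fold. Ccl5 was 2.94-fold higher (2.77 to 3.11) and Cxcl10 1.67-fold (1.56 to 1.78). Xcl1 was 1.58-fold lower (1.18 to 2.11), Ccl27a 2.47-fold lower (1.81 to 3.42) and Ccl25 6.54-fold lower (4.41 to 10.02). The authors' deposited table marks 21 of the 25 members it gives a mark cell as higher in lean adipose and 1 as lower, in a comparison of 2 libraries that marks 53.2% of all genes with such a cell.

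Markers of other cells moved with this comparison. The 14 macrophage and monocyte markers summed to 7.01 CPM in LN, with 13 at 0 there, and to 1677 in lean, with Fcgr1 alone at 0. The 10 fibroblast and mesothelial markers summed to 8.56 in LN and 984 in lean, most of it Dcn, a proteoglycan gene of fibroblasts. None of the 8 neutrophil markers was above 0 in either library, and the platelet markers summed to 11.6 in lean and 0 in LN. The part that macrophage or stromal RNA has in the ligand levels was not tested. In bulk samples such as these, fewer cells of a type and less RNA per cell cannot be told apart.

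With 10-month Foxp3Cre adipose in place of lean, the library that shares sex markers and Gapdh with LN, 15 of 22 measured members were at least 2-fold higher than in LN (34.3% of 13187 genes) and 2 lower (29.8%), with a median log2 ratio of 2.23 against 0.10 over all genes, both in CPM. The median was 3.03 with members at their bounds. LN listed 11 of the 22 at 0, so those could not be lower. Cxcl2 was 41.05-fold higher (38.7 to 43.6), Ccl6 5.27-fold (4.09 to 6.88), Ccl1 5.005-fold (3.74 to 6.79) and Ccl2 3.96-fold (3.26 to 4.83). Cxcl3 was at least 4021-fold higher, Cxcl5 at least 712-fold and Ccl7 at least 88.7-fold. Ccl3 and Ccl4, far above LN in lean adipose, were here 1.35-fold (1.015 to 1.80) and 1.72-fold (1.28 to 2.33) higher, and Ccl5 was 1.14-fold higher (1.06 to 1.22). Ccl25 was 2.90-fold lower (2.18 to 3.88) and Ccl27a 14.4-fold lower (7.63 to 30.7). Foxp3, Il2ra and Ctla4 were at least 2-fold higher among the 8 Treg and T cell markers, and Cd3g and Lck at least 2-fold lower. Macrophage and monocyte markers summed to 667 CPM against 7.01 in LN and fibroblast markers to 48.9 against 8.56, and their part was not tested.

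Obese adipose against LN, which shares the LN library with the comparison of lean adipose, showed 23 of 27 measured members at 2-fold or more above LN (41.8% of 14713 genes) and 2, Ccl27a and Xcl1, at least 2-fold lower (23.7%). The members' median log2 ratio was 4.43, against 0.44 over all genes, and 5.42 with members at their bounds. LN listed 16 of these 27 at 0, so those could not be lower. Ccl4 was 245-fold higher (195 to 313), Ccl6 71.3-fold (56.5 to 91.3), Ccl2 55.4-fold (46.6 to 66.3), Ccl3 52.9-fold (42.7 to 66.1) and Cxcl2 21.7-fold (20.5 to 23.04). Against no LN reads, Ccl8 was at least 3291-fold higher, Ccl7 at least 2823-fold, Cxcl1 at least 1209-fold and Ccl9 at least 1121-fold. Xcl1 was 6.96-fold lower (4.13 to 12.5) and Ccl25 2.07-fold lower (1.59 to 2.71), which is under 2-fold once 1 is added to both values. The macrophage and monocyte markers summed to 5693 CPM in obese adipose against 7.01 in LN and the fibroblast markers to 14.7 against 8.56, and their part was not tested. The authors' deposited table marks 18 of 24 members as higher and 1 as lower, and 41.8% of all genes with a mark cell.

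**Figure D4:**
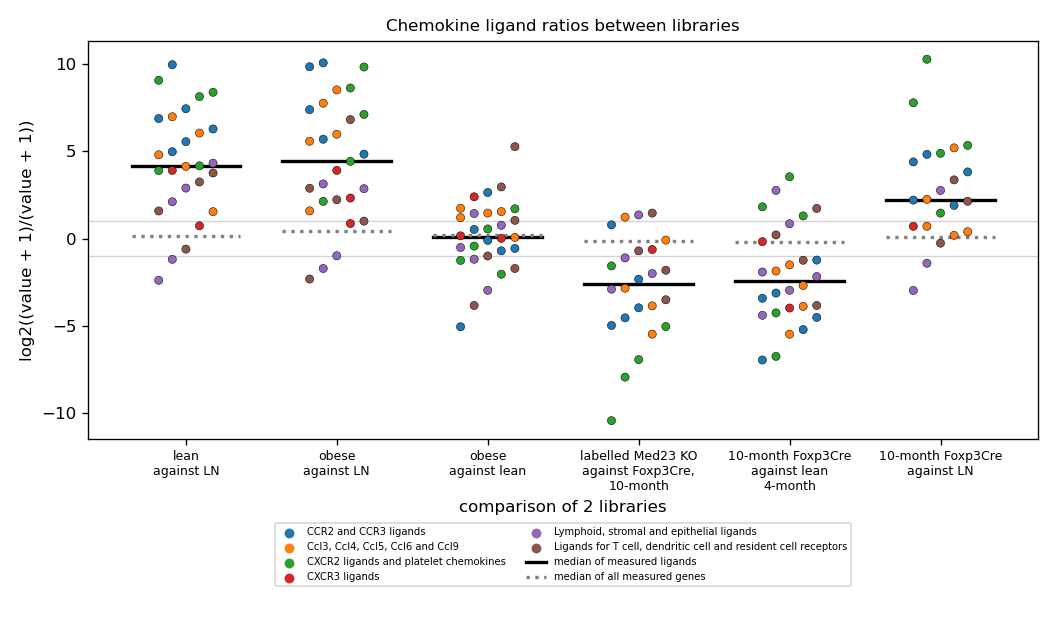
Log2((value + 1)/(value + 1)) of each measured chemokine ligand (points, coloured by ligand group, side offset for legibility alone) in 6 comparisons of 2 libraries. Black bars are medians of the ligands and dotted grey bars medians of all measured genes. Grey lines mark 2-fold. The ligands' median is 4.17 and 4.43 in lean and obese adipose against LN and -2.58 in the library labelled Med23 KO against its Foxp3Cre control.

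Obese against lean adipose asked how obesity goes with the Treg transcriptome of fat, between the 2 libraries that share Y-linked reads and low Gapdh. In CPM, 11 of 30 measured members lay at least 2-fold above lean adipose (34% of 14804 genes) and 7 at least 2-fold lower (18.6%). Lean adipose had 3 of the 30 at 0, which could not be lower, and obese adipose had 3 at 0, which could not be higher. The median log2 ratio was 0.12, against 0.20 over all genes, so the list as a whole lay close to all genes. Its role groups did not share 1 pattern. Of Ccl3, Ccl4, Ccl5, Ccl6 and Ccl9, 4 were higher, with Ccl4 3.35-fold (3.24 to 3.45), Ccl9 2.95-fold (2.75 to 3.16), Ccl3 2.77-fold (2.62 to 2.94) and Ccl6 2.31-fold (2.20 to 2.43), while Ccl5 was within 1.05-fold (1.007 to 1.10).

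Also higher in obese adipose were Cxcl16, 56.6-fold (35.6 to 95.9), Ccl8, 6.28-fold (5.95 to 6.64), and Pf4, 3.28-fold (3.14 to 3.43). The monocyte attractants Ccl2 and Ccl7 were not: Ccl2 was 1.48-fold lower (1.43 to 1.52) and Ccl7 1.07-fold lower (1.04 to 1.11). Lower in obese adipose were Cxcl3, 2.39-fold (2.23 to 2.56), Cxcl5, 4.97-fold (3.29 to 7.79), Cxcl14, 2.42-fold (1.80 to 3.29), and Xcl1, 4.33-fold (2.51 to 7.95), and Ccl11, with no obese reads, at least 80.5-fold. Cxcl2 was 1.47-fold higher (1.44 to 1.499) and Cxcl9 1.013-fold higher (0.778 to 1.32), an interval that spans equal levels.

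Beside these values, the macrophage and monocyte markers summed to 5693 CPM in obese against 1677 in lean. All 14 were above 0 in obese and 13 at least 2-fold higher, beside 34% of all genes. The dendritic cell markers summed to 107 against 18.4, with Clec9a at 0 in both. Fibroblast and mesothelial markers went the other way, at 14.7 in obese against 984 in lean. Platelet markers were at 4.27 against 11.6, and neutrophil markers at 0 in both. Their part in the ligand differences was not tested.

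The library labelled Med23 KO against 10-month Foxp3Cre asked what loss of Med23 in Tregs changes in aged fat. Of 24 measured members, 17 were at least 2-fold lower in the library labelled Med23 KO (34.9% of 13549 genes) and 3 at least 2-fold higher (28.6%), with a median log2 ratio of -2.58 against -0.15 over all genes, and -2.90 with members at their bounds. The labelled knockout listed 13 of the 24 at 0, which were measured through the control alone and could not be higher. All 5 measured CXCR2 ligands and platelet chemokines were lower. Cxcl2 had 43.4 scaled counts against 5433, 125-fold lower (109.6 to 143), Cxcl3 had no reads against 1381, at least 2353-fold lower, Cxcl5 was at least 416-fold lower and Cxcl1 at least 54.3-fold. Of the CC ligands, Ccl6 was at least 74.1-fold lower, Ccl7 at least 51.9-fold, Ccl8 at least 38.01-fold and Ccl3 at least 22.9-fold, and Ccl9 was 8.47-fold lower (5.60 to 13.4). Of the 8 Treg and T cell markers, Il2ra was at least 2-fold lower (342 against 1413 CPM) and none higher, their median log2 ratio was -0.42, and Foxp3 had 155 against 185 CPM.

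Among the ligands known from T cells, Ccl3 is given above, and the others varied. Ccl5 was 2.36-fold higher in the library labelled Med23 KO (2.21 to 2.51) and Ccl4 1.06-fold lower (0.787 to 1.45), an interval that spans equal levels. Xcl1 was 1.71-fold lower (1.16 to 2.58) and Ccl1 3.81-fold lower (2.76 to 5.39). Of members known from other cells, Ccl2 was 1.74-fold higher (1.54 to 1.97) and Cxcl10 1.55-fold lower (1.43 to 1.67). The other members at least 2-fold higher, Cx3cl1 and Cxcl12, had 9 and 8 reads in that library. The authors' deposited table marks 12 of 20 members as lower and Ccl5 alone as higher, and 40.8% of all genes with a mark cell.

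Of 10 measured macrophage and monocyte markers 9 were at least 2-fold lower in the labelled knockout, beside 34.9% of all genes. Retnla was higher, and the markers' median log2 ratio was -2.78. They summed to 364 CPM in that library, with 8 of 14 at 0, among them Csf1r, Cd68 and Mrc1, and to 667 in 10-month Foxp3Cre, with 4 of 14 at 0. Retnla made up most of the former (259 CPM) and Lyz2 most of the latter (477). Fibroblast markers summed to 0 and 48.9, and neutrophil markers to 15.5, all of it Csf3r, and 0. Platelet markers summed to 6.75 and 0 (Gp1ba alone above 0) and CD8 T and NK cell markers to 63.8 and 9.33. Nearly all of the 63.8 was Cd8b1 (60.1 against 2.28), while Cd8a went the other way (0 against 7.05). Of 5 B cell markers 4 were at least 2-fold higher, beside 28.6% of all genes, at only 1.52 to 7.18 CPM. The other, Cd79b, was lower (0 against 7.77). The list summed to 13.9 against 7.77. The part of these cells in the ligand differences was not tested. The library labelled Med23 KO also had fewer reads than its control (4595046 against 9650769), and the lower bounds above allow for this.

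Age was compared between 10-month Foxp3Cre and lean 4-month adipose, which also differ in sex markers and Gapdh, so these cannot be told apart from age. In CPM, 20 of 28 measured members were at least 2-fold lower at 10 months (32.7% of 13880 genes) and 5 at least 2-fold higher (28.5%), with a median log2 ratio of -2.43 against -0.17 over all genes, and -2.95 with members at their bounds. The 10-month library listed 6 of the 28 at 0, which could not be higher. All 6 members grouped as ligands of CCR2 and CCR3 were lower, as were Ccl3, Ccl4, Ccl5, Ccl6 and Ccl9. Ccl4 was lower 47.9-fold (40.1 to 57.7), Ccl7 38.4-fold (33.99 to 43.6) and Ccl2 23.3-fold (21.3 to 25.5). The CXCR2 ligands and platelet chemokines split. Cxcl5 was 12.3-fold higher (10.4 to 14.6), Cxcl3 3.55-fold (3.41 to 3.70) and Cxcl2 2.47-fold (2.43 to 2.51), while Cxcl1 was 19.7-fold lower (17.5 to 22.4) and Pf4 168-fold lower (105 to 289). Of 13 measured macrophage and monocyte markers 10 were at least 2-fold lower at 10 months and none higher. They summed to 667 against 1677 CPM, with Retnla at 9.33 against 759 and Lyz2 at 477 against 319.9. Neutrophil markers were at 0 in both. Fibroblast markers were at 48.9 against 984. The part of these cells in the differences was not tested.

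**Figure D5:**
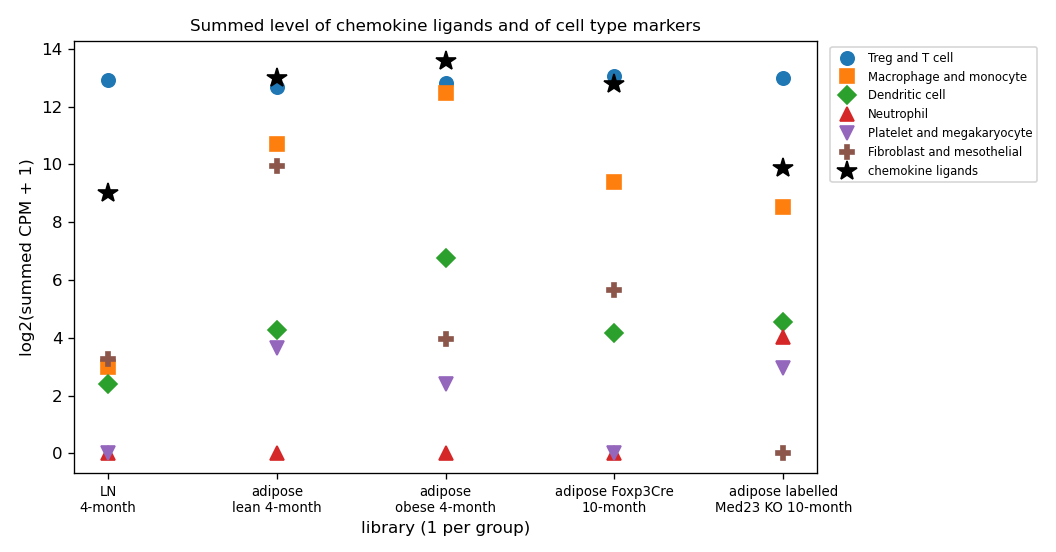
Summed level, as log2(summed CPM + 1), of the chemokine ligands (stars) and of 6 marker lists for cell types in each library. Macrophage and monocyte markers are highest in obese adipose (5693 CPM), as the ligand sum is (12301 CPM), and in 10-month Foxp3Cre adipose the ligand sum is 7100.3 beside a macrophage sum of 667.

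Receptors for these ligands were taken as a list of 22 genes, which summed to 599 CPM in LN, 2073 in lean, 1893 in obese, 4429 in 10-month Foxp3Cre and 805 in the labelled knockout. At least 2-fold higher than in LN were 9 of 16 measured in lean, with 3 lower, where 37.6% of all genes were higher and 32.1% lower. In obese 11 of 16 were higher and 3 lower, beside 41.8% and 23.7% of all genes. In the labelled knockout 10 of 15 were at least 2-fold lower than in its control, beside 34.9% of all genes, and Cxcr2 alone higher, beside 28.6%. Ccr2, the receptor of Ccl2 and Ccl7, had 46.01 CPM in LN, 584 in lean, 246 in obese, 609.8 in 10-month Foxp3Cre and 20.2 in the labelled knockout, where it was 37.2-fold lower than in the control (30.3 to 46.2). Ccr1, which binds Ccl3 and Ccl5, was listed at 0 in LN and the labelled knockout and had 103 in lean, 59.8 in obese and 463 in 10-month Foxp3Cre. Cxcr2, the receptor of Cxcl1, Cxcl2, Cxcl3 and Cxcl5, had no listed value above 0 outside the labelled knockout, where it had 1.31 (6 reads). Cxcr6, the receptor of Cxcl16, had 81.9 in LN, 660.0 in lean, 375 in obese, 1808 in 10-month Foxp3Cre and 80.1 in the labelled knockout, so it was highest where Cxcl16 was not.

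Of 10 cytokine genes known to induce chemokines, 6 lay at least 2-fold above LN in lean adipose and 2 below it, beside 37.6% and 32.1% of all genes. Of 8 measured in obese adipose 5 lay above LN and 2 below, beside 41.8% and 23.7%. Il6 had 329 CPM in lean and 42.02 in obese and was listed at 0 in the other 3 libraries. Il1b, a product of activated macrophages, had 31.03 in lean, 437 in obese, 52.9 in 10-month Foxp3Cre and 23.5 in the labelled knockout, and 0 in LN. Ifng, which induces Cxcl9, Cxcl10 and Cxcl11, had 131 in LN, 118 in lean, 138 in obese, 106 in the labelled knockout and 0 in 10-month Foxp3Cre. Cxcl10 had 249 in 10-month Foxp3Cre, and a link between cytokine and ligand levels was not tested.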

How the data were processed

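Sorted Treg RNA was sequenced from TruSeq libraries, 1 per group, grouped by title. TopHat2 2.0.9, Bowtie2 2.0.6 and the mm8 build are listed in the submitters' processing notes. How reads were counted and scaled, and whether strand was used, is not given here, so reads shared by overlapping or near-identical genes cannot be checked. The authors deposited 3 tables of 2 libraries with scaled read counts (used as a signal), a log2 fold change, a p-value and q-value, and a true or false signature mark whose rule is not given here (a marked gene is called marked in the text). Each library has its own step, the worth of 1 read, and every nonzero value is a whole number of steps to within 0.01 read. Values under 1 are listed as 0; there the deposited fold change gives back the reads, with 0.5 standing for none. IDs without a value had no reads: this held for all 324 and 273 IDs that could be checked in the LN library. As each group had 1 library, no count model was fitted and no p-value is printed.

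Symbols came from GENCODE M21 names (49326 of 49927 IDs matched), promoters from RefSeq GRCm38.p6, and no RefSeq coordinate was joined to the mm8 tables. Ratios are log2((value + 1)/(value + 1)), as deposited within a table and in CPM (column total of 1000000) across tables; a member counts as measured at 1 or more in either library. Folds come from reads, with exact Clopper-Pearson intervals given the sum of both libraries' reads. All 34 members are named, those at 20 CPM or more in any library with all values. Proteins were not used here, and 2 genes of the lists are not reported here. Members and lists were chosen with earlier results of these data known. The work was done with pandas 2.3.3, numpy 2.4.6, matplotlib 3.10.9 and scipy 1.17.1 in Python 3.11.15, and the steps were tested on simulated reads with 200 genes altered per comparison. The 9 alternative settings were other pseudocounts, scalings, filters, thresholds and ID rules.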

Additional observations from a re-analysis of the deposited data

How the results depend on the processing

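Under 9 alternative settings 101 recomputed counts of members stayed within 1.5 times their value and 7 did not, and no named ratio past 2-fold changed direction. Of the recomputed log2 ratios of single members, 1051 stayed within the counting error of the ratio and 355 did not. A ratio without a counting interval was taken as moved at any change. With a 3-fold threshold, members lower in lean adipose against LN numbered 1, higher in obese against lean 6, higher in the library labelled Med23 KO 0, and lower in 10-month Foxp3Cre against LN 1. With a pseudocount of 5, members lower in lean adipose against LN numbered 1 and members higher in the library labelled Med23 KO 1. Measured at 5 or more, members higher in the library labelled Med23 KO numbered 1. The use of reads recovered under 1 was chosen after seeing the data, and it moved none of these counts by more than 1.5 times. Rescaling to equal totals moved the median log2 ratio of all genes from -0.15 to 0.15 in the library labelled Med23 KO against its control (4 members higher, 17 lower), from 0.44 to 0.60 in obese adipose against LN (24 higher, 2 lower), from 0.14 to 0.28 in lean adipose against LN (23 higher, 2 lower) and, with the authors' scaling in place of CPM, from -0.17 to 0.06 in 10-month Foxp3Cre against lean adipose (6 higher, 20 lower). In obese against lean adipose, centring on the median of all genes turned the members' median from 0.12 to -0.08. No paired analysis was possible because each group had 1 library and no result comes from a test, and no replicate could be left out. The smallest nonzero listed value stands for 6 to 10 reads, depending on the library, so levels of a few CPM are the least precise.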
